A study of Mus musculus with 18 samples.

Results

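The rod phototransduction genes are a group of 9 genes whose proteins carry or end the light response of the rod photoreceptor: Gnat1, Gnb1, Gngt1, Pde6a, Pde6b, Pde6g, Cnga1, Cngb1 and Sag. They were chosen by name among the 23420 gene symbols of the deposited count tables, by no rule on their values, but with earlier results of these data known. All 9 passed the filter on low counts. RNA of whole retinas was sequenced from 9 wild-type Balb/cJ mice, an albino strain whose retina is damaged by bright light, in groups of 3. Naïve mice received neither light nor treatment, whereas vehicle-treated mice were exposed to white light of 15000 lux for 1 h and given DMSO. TD139-treated mice received the same light and daily intraperitoneal TD139, a small-molecule inhibitor of galectin-3, at 15 mg/kg in DMSO. Injections began on the day before the light. According to the methods the mice were young adults of both sexes, and retinas of exposed mice were taken 4 days after the light. The comparisons ask how the rod light response genes stood after light damage, with and without the inhibitor. No unexposed mice given DMSO or TD139 were analysed here, so effects of light and of the DMSO injections cannot be told apart.

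In a rod, light leads to activation of the G protein transducin. Gnat1 encodes its alpha subunit, which carries the GTP, and Gnb1 and Gngt1 encode the beta and gamma subunits that hold it until it is activated. Activated alpha transducin relieves the inhibition of the phosphodiesterase PDE6 by its small gamma subunit, the product of Pde6g, and the catalytic subunits, the products of Pde6a and Pde6b, break down cyclic GMP. The fall of cyclic GMP closes the channel built from the products of Cnga1 and Cngb1, and the rod hyperpolarizes. Cngb1 also encodes shorter glutamic acid-rich proteins of the disc rim, which reads on the gene do not separate from the channel subunit. Sag encodes rod arrestin, which ends the response, so Sag belongs to its termination, not its activation. Gnb1, in contrast to the other members, is expressed in many cell types. On GRCm38 (GENCODE M21) Gnat1 lies at chr9:107674474-107679712, Gnb1 at chr4:155491361-155559269, Gngt1 at chr6:3993792-3997436, Pde6b at chr5:108388391-108432397, Pde6g at chr11:120447605-120453500, Cnga1 at chr5:72603696-72644275, Cngb1 at chr8:95239045-95306585 and Sag at chr1:87803680-87845158.

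The promoters of 3 members are shown for contrast: Cngb1 and Pde6b were lower after light and higher with the inhibitor, whereas Sag passed the test in neither comparison. Each sequence is the 250 bases before the transcription start, 5′ to 3′ on the strand of the gene, from RefSeq on GRCm38.p6. Capitals mark TAATCC, the core element bound by the photoreceptor homeobox factor CRX, and TGCTGA, the core of the element bound by the rod factor NRL, each in either orientation.
Cngb1 (chr8:95306586-95306835, minus strand): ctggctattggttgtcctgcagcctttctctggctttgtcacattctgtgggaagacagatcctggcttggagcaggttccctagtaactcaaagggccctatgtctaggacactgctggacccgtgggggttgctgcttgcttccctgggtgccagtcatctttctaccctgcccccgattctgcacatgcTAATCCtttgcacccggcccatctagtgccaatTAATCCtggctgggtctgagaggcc
Pde6b (chr5:108388123-108388372, plus strand): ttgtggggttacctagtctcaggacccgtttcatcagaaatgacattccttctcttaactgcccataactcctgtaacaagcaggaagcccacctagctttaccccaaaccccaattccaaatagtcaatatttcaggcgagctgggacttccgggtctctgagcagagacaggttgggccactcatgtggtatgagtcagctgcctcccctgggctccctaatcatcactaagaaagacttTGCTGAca
Sag (chr1:87803430-87803679, plus strand): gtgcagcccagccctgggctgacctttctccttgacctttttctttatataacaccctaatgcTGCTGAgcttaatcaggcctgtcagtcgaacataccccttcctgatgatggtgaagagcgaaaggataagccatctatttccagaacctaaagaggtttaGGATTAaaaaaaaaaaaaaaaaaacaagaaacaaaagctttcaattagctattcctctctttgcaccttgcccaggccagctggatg
Of the 9 genes, 6 had an entry in the promoter table, and Gnat1, Pde6a and Pde6g did not. The CRX element or its reverse complement GGATTA was present in 4 of the 6, namely in Cngb1 at 58 and 25 bases before the start, Gngt1 at 44, Sag at 87 and Cnga1 at 228, and it occurred in 6.25% of the 32851 promoter windows in the table. The NRL core (reverse complement TCAGCA) was found in Sag at 187 and Pde6b at 8 bases before the start, against 16.1% of all windows. The GC box GGGCGG, also searched as CCGCCC, was found only in Gnb1 among the 6, in 3 places of which 2 overlap by 1 base, against 32.7% of all windows. TATAAA was found as TTTATA on the opposite strand in Sag and Gngt1, and in 12.4% of all windows in either orientation. Sag, which passed neither test, was the only 1 of the 6 windows with both photoreceptor elements. These matches are letters in a window and no evidence of binding.

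Each mouse had 26171887 to 30201517 reads on genes, in 2 sequencing runs that were summed. Of these reads the 9 genes together took 4.70 to 4.93% in the naïve group, 3.10 to 3.98% in the vehicle group and 3.99 to 4.40% in the TD139 group. The lowest share was that of vehicle-treated mouse 3. On the TMM-normalized scale these groups overlapped, with summed levels of 39326 CPM in vehicle-treated mouse 2 and 39069 CPM in TD139-treated mouse 1. Because whole retinas were sequenced, a smaller number of rods and less RNA per rod cannot be told apart. Rod transcripts were present in the tissue: Nrl, a transcription factor that defines rods, had a mean of 2572 CPM (reads scaled to the TMM-normalized library size) in the naïve group. Lens crystallin genes were uneven between mice, with a summed level of 6816 CPM in vehicle-treated mouse 2 and between 0.592 and 281 CPM in the other 8 mice.

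In naïve mice, the levels of the 9 transcripts spanned a wide range once divided by transcript length (CPM per kb of the principal transcript, mean ± SD, n = 3). Gnat1 stood highest at 7426 ± 837 CPM per kb, followed by Sag at 6504 ± 1091, and the mice of these 2 genes overlapped. Pde6g was at 4369 ± 815 CPM per kb and Gnb1 at 2386 ± 40.4, each apart from its neighbours in every mouse. Gngt1 with 1779.8 ± 520.1 CPM per kb overlapped with Pde6b, which was at 1244 ± 46.3. The channel subunit Cnga1 at 409.8 ± 33.0 CPM per kb and the catalytic subunit Pde6a at 376 ± 45.2 overlapped as well. Cngb1 was lowest at 198 ± 16.5 CPM per kb. This order rests on the length used: with the longest annotated transcript or the mean over transcripts as the length, 11 of 18 levels moved by more than their SD. Gnat1 was first with each of the 3 lengths. With the longest transcript, Sag was at 2365, Pde6g at 1748 and Gngt1 at 707 CPM per kb. The means of these 3 were then below that of Gnb1, which for Sag was a difference smaller than the SD, and Gngt1 was also below Pde6b at 852. With the mean over transcripts, Gnb1 at 4163 CPM per kb came before Pde6g at 3039.5, Pde6b at 1288 before Gngt1 at 1013, and Cngb1 at 525 before Pde6a at 504.

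**Figure D1:**
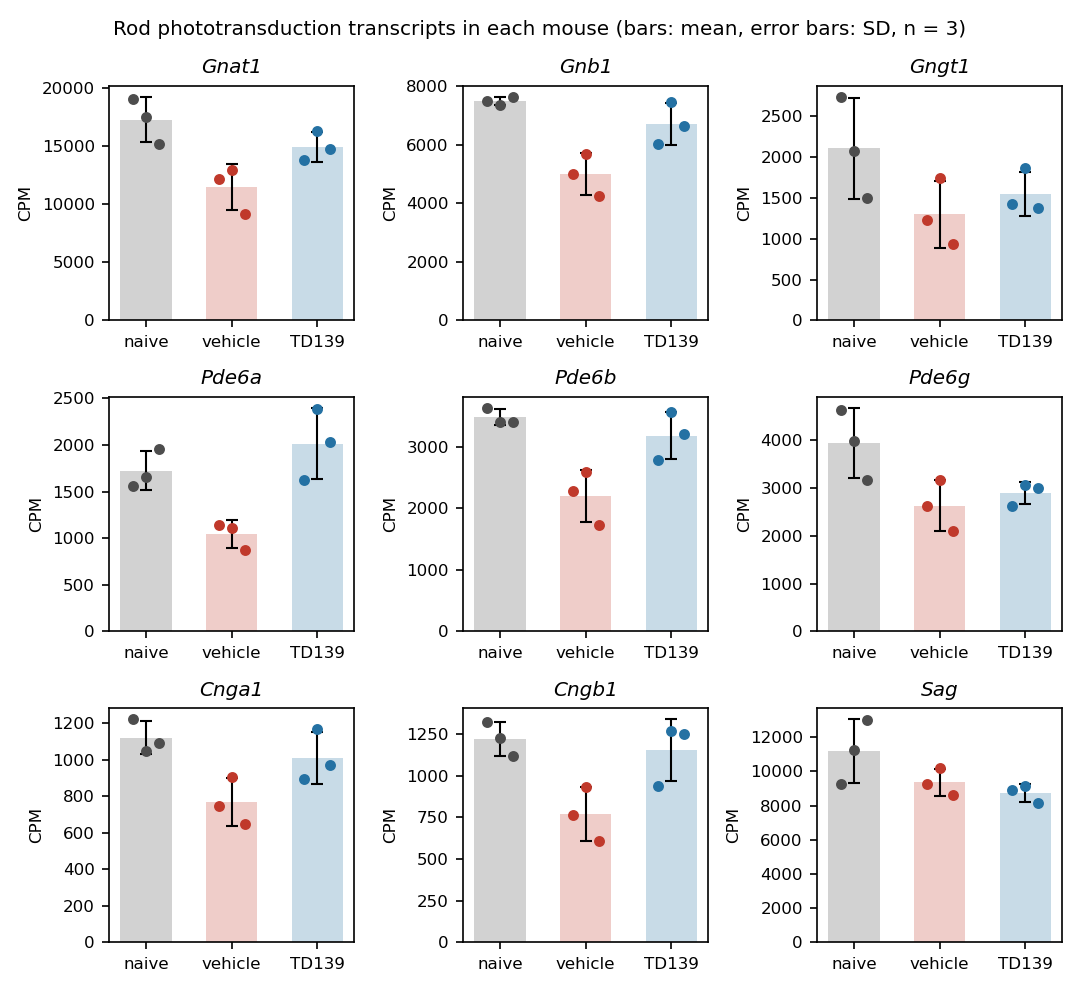
Levels of the 9 transcripts in CPM (vertical axis, from 0) in naïve, vehicle-treated and TD139-treated mice. Points are mice, bars are means and error bars are SD of 3 mice. Vehicle-treated mice lie below all naïve mice for 7 genes, and overlap with naïve mice for Gngt1 and Sag.

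Among the transducin genes, Gnat1 was at 19119, 17506 and 15239 CPM in naïve mice, 12207, 12978 and 9212 CPM in vehicle-treated mice and 13804, 16293 and 14744 CPM in TD139-treated mice. All vehicle-treated mice lay below the naïve mice, and TD139-treated mice lay between, overlapping with naïve mice. Gnb1 was at 7491, 7378 and 7632 CPM in naïve mice, 5019.8, 5700.0 and 4263 CPM in vehicle-treated mice and 6033, 7467 and 6637 CPM in TD139-treated mice. The naïve mice were close together, each vehicle-treated mouse was lower, and TD139-treated mouse 2 reached into the naïve range. Gngt1 was at 2733, 2079.7 and 1504 CPM in naïve mice, 1225, 1740.0 and 930.3 CPM in vehicle-treated mice and 1422, 1863 and 1374 CPM in TD139-treated mice. The naïve mice differed widely in Gngt1, and the 3 groups overlapped.

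Of the PDE6 genes, Pde6a was at 1563, 1658 and 1960.0 CPM in naïve mice, 1146, 1114 and 869.9 CPM in vehicle-treated mice and 1627, 2385 and 2038 CPM in TD139-treated mice. Vehicle-treated mice were lowest, without overlap with either other group, and TD139-treated mice 2 and 3 exceeded every naïve mouse. Pde6b was at 3631, 3401 and 3412 CPM in naïve mice, 2286, 2585 and 1739 CPM in vehicle-treated mice and 2787, 3562 and 3208 CPM in TD139-treated mice. The pattern was that of Gnb1, with TD139-treated mice above all vehicle-treated mice. Pde6g was at 4637, 3987 and 3173 CPM in naïve mice, 2614, 3167 and 2109 CPM in vehicle-treated mice and 2626, 3067 and 2994 CPM in TD139-treated mice. Here the TD139-treated mice stayed below all naïve mice and within the range of the vehicle-treated mice.

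Of the channel genes, Cnga1 was at 1224, 1049.6 and 1094 CPM in naïve mice, 749.7, 908 and 649 CPM in vehicle-treated mice and 895, 1171 and 970.4 CPM in TD139-treated mice. TD139-treated mouse 1 was below vehicle-treated mouse 2, so that these groups overlapped. Cngb1 was at 1321, 1228 and 1118 CPM in naïve mice, 763, 932 and 608 CPM in vehicle-treated mice and 938, 1268 and 1252 CPM in TD139-treated mice. Again TD139-treated mouse 1 was the lowest of its group, in this case just above the highest vehicle-treated mouse. Sag was at 9279.7, 11229 and 13030.3 CPM in naïve mice, 9270.1, 10202 and 8607 CPM in vehicle-treated mice and 8937, 9173 and 8149 CPM in TD139-treated mice. Arrestin levels in the vehicle-treated mice overlapped with those of naïve mouse 1, and TD139-treated mice were below all naïve mice.

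In vehicle-treated compared with naïve mice, 6 of the 9 genes were lower at an adjusted p-value under 0.05 (edgeR quasi-likelihood test, Benjamini-Hochberg over 15196 tested genes), against 2.89% of all tested genes called lower and 4.91% called higher. All 9 differences were below 0, with a median log2 fold change of −0.59, where the median of all tested genes was −0.0018. In 7 of the 9, all vehicle-treated mice lay below all naïve mice, against 16.6% of all tested genes. Without vehicle-treated mouse 2, in which lens transcripts were high, 8 members were called lower, against 2.30% of all genes.

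Of the transducin genes, Gnat1 fell by 33.7% (log2 fold change −0.59 ± 0.14, SE, adjusted p = 0.0298). Gnb1 fell by 33.4% (log2 −0.59 ± 0.12, adjusted p = 0.0235). Gngt1 had a larger difference, −0.70 ± 0.26, but its spread between mice left an adjusted p of 0.124 and a 95% interval of −1.29 to −0.11. Of the catalytic PDE6 subunits, Pde6a fell by 39.6% (log2 −0.73 ± 0.16, adjusted p = 0.0254) and Pde6b fell by 36.7% (log2 −0.66 ± 0.14, adjusted p = 0.0255). The inhibitory subunit Pde6g narrowly missed the threshold at −0.58 ± 0.17 (adjusted p = 0.0542). In the channel, Cngb1 fell by 37.2% (log2 −0.67 ± 0.16, adjusted p = 0.0341) and Cnga1 fell by 31.5% (log2 −0.55 ± 0.14, adjusted p = 0.0411). Sag had the smallest difference, −0.26 ± 0.13 (adjusted p = 0.213, 95% interval −0.53 to 0.02). The calls depended on single mice: without naïve mouse 1, 2 or 3, or without vehicle-treated mouse 1 or 3, none of the 9 was called by edgeR, while 7 or 8 of them had an unadjusted p under 0.05. Among all genes, 0 to 77 were called lower in these fits at the adjusted threshold. Counts at an unadjusted p, here and below, are given without the share of all genes at that threshold. The signs and sizes moved less, with the median of the 9 between −0.74 and −0.49 when any one mouse was left out.

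In TD139-treated compared with vehicle-treated mice, 5 of the 9 genes were higher, where 17.2% of all tested genes were called higher and 16.2% lower. Their median log2 fold change was 0.40, against −0.02 for all tested genes, and for 5 of the 9 the TD139-treated mice lay above all vehicle-treated mice, against 26.0% of all tested genes. The largest difference was that of Pde6a, which rose by 93.3% (log2 0.95 ± 0.16, adjusted p = 0.00568), and it remained called when any one of the 9 mice was left out. Cngb1 rose by 0.59 ± 0.16 (adjusted p = 0.0197) and Pde6b by 0.53 ± 0.14 (adjusted p = 0.0173) on the log2 scale. Gnb1 rose by 0.43 ± 0.12 (adjusted p = 0.0206) and Cnga1, at the edge of the threshold, by 0.40 ± 0.14 (adjusted p = 0.0495). Gnat1 was on the other side of that edge, at 0.38 ± 0.14 (adjusted p = 0.0514), although its mice did not overlap. The 2 small subunits, Gngt1 at 0.26 ± 0.26 (adjusted p = 0.465) and Pde6g at 0.14 ± 0.16 (adjusted p = 0.532), were not called, and their 95% intervals ran over −0.33 to 0.85 and −0.22 to 0.50. Sag had a difference below 0, −0.10 ± 0.13 (adjusted p = 0.573). Without vehicle-treated mouse 2 the count was 6, against 12.5% of all genes called higher, and without vehicle-treated mouse 1 it was 3, against 14.4%. Without vehicle-treated mouse 3, TD139-treated mouse 2 or TD139-treated mouse 3 it was 1, which was Pde6a, and the share of all genes called higher was also smaller, at 8.07, 5.61 and 6.80%.

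In TD139-treated compared with naïve mice, edgeR called none of the 9 genes, where 2.72% of all tested genes were called higher and 2.38% lower. At an unadjusted p under 0.05 there were 2, Pde6g and Sag, while DESeq2 called 1 (Sag, lower) and limma 3 (Pde6g and Sag lower, Pde6a higher). These methods also called more of all genes, DESeq2 10.3% higher and 8.30% lower, and limma 18.6% higher and 15.1% lower. The median log2 fold change was −0.16, against −0.0023 for all genes, with 8 genes below 0 and Pde6a above at 0.22 ± 0.16 (adjusted p = 0.367). The lowest were Pde6g at −0.44 ± 0.16 (adjusted p = 0.107), Gngt1 at −0.44 ± 0.26 (adjusted p = 0.296) and Sag at −0.35 ± 0.13 (adjusted p = 0.0974). Pde6g and Sag were the 2 genes whose TD139-treated mice all lay below the naïve mice, as did 16.8% of all tested genes. The 95% intervals ran over −0.44 to 0.27 for Cngb1 and −0.51 to 0.09 for Gnat1, so the data allow a remaining reduction of either. No member reached the log2 fold change of 2 that the study applied, in any comparison, and the vehicle-treated and naïve mice each serve in 2 of the 3 comparisons.

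**Figure D2:**
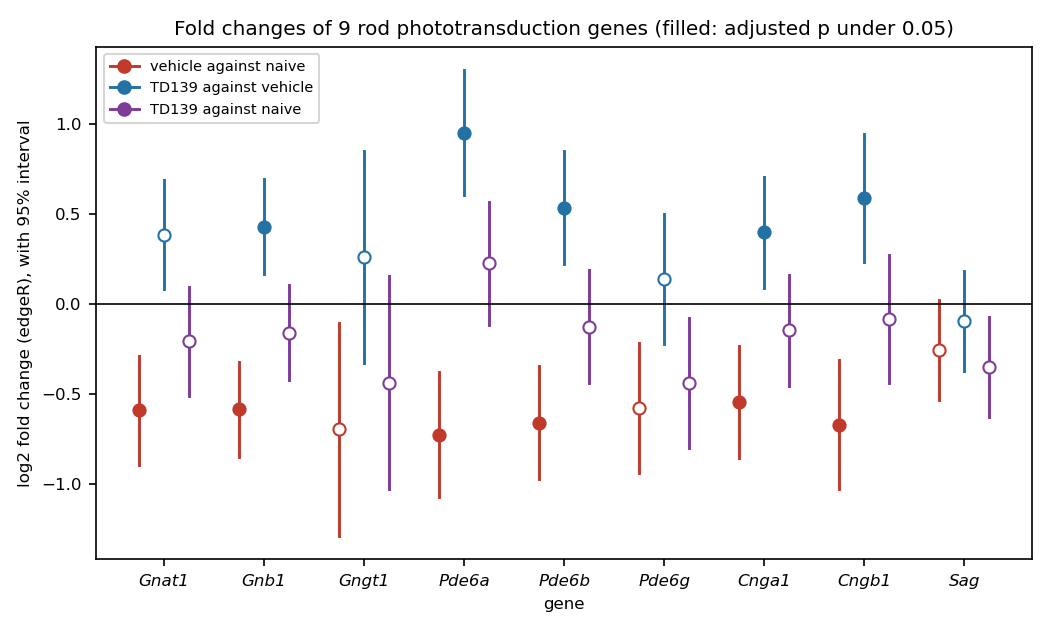
Log2 fold changes of the 9 genes (vertical axis) in 3 comparisons, with 95% intervals from edgeR. Filled points have an adjusted p-value under 0.05, which 6 genes reached for vehicle versus naïve, 5 for TD139 versus vehicle and none for TD139 versus naïve.

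Reads of subunits of 1 complex were also compared within each mouse. In the PDE6 complex, reads of Pde6g per read of Pde6a were 2.97, 2.40 and 1.62 in the naïve group, 2.28, 2.84 and 2.42 in the vehicle group and 1.61, 1.29 and 1.47 in the TD139 group. Every TD139-treated mouse was below every other mouse, by a mean log2 difference of −0.79 from vehicle-treated and −0.64 from naïve mice. Reads of Pde6b per read of Pde6a were 2.32, 2.05 and 1.74 in the naïve group, 1.99, 2.32 and 2.00 in the vehicle group and 1.71, 1.49 and 1.57 in the TD139 group, again lower in each TD139-treated mouse, by −0.40 and −0.35. In the channel, Cngb1 had 1.08, 1.17 and 1.02 reads per read of Cnga1 in the naïve group, 1.02, 1.03 and 0.937 in the vehicle group and 1.05, 1.08 and 1.29 in the TD139 group, with a log2 difference of 0.19 between TD139 and vehicle and no overlap. These 5 differences had p = 0.1 in an exact two-sided permutation test, the smallest that 3 against 3 mice allow, and 0.30 after adjustment over the 15 ratios and comparisons. The ratios of Gnb1 and Gngt1 to Gnat1 overlapped between all groups, with log2 differences between −0.20 and 0.04. Between vehicle-treated and naïve mice, all 5 ratios overlapped. These ratios depended on a correction for transcript length and GC content (an offset in the fit, chosen for the ratios after the data were seen). With it, the log2 difference in Pde6g/Pde6a was −0.05 between TD139 and vehicle and −0.06 between TD139 and naïve. That in Pde6b/Pde6a was −0.19 and −0.16, and that in Cngb1/Cnga1 between TD139 and vehicle was 0.12. Gngt1/Gnat1 differed by −0.41 and −0.54 with the offset, and Gnb1/Gnat1 turned to −0.25 and −0.17. No test of the ratios was made with the offset.

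**Figure D3:**
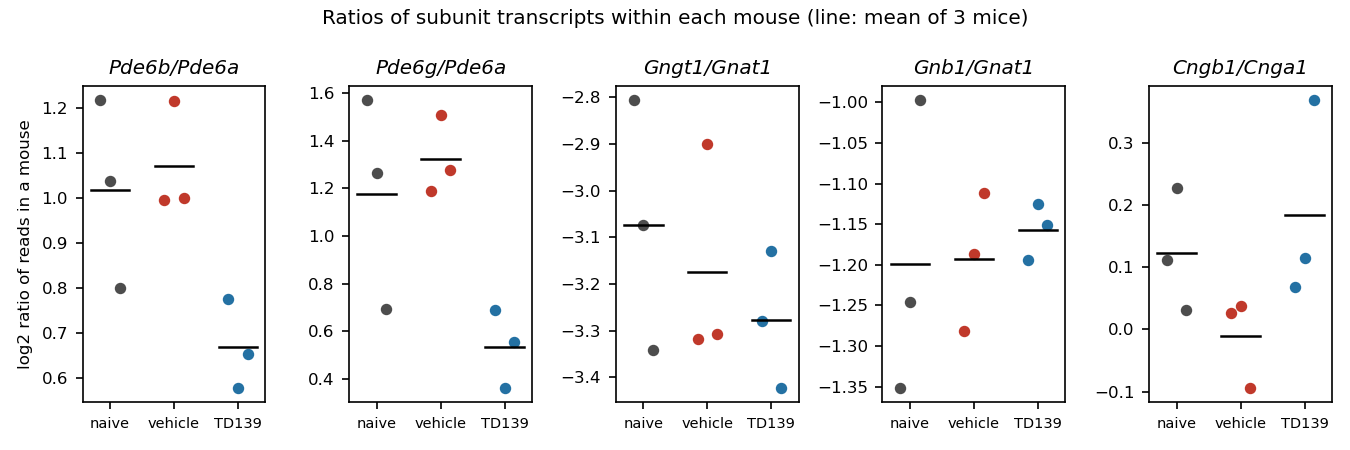
Log2 ratio of reads of 2 subunit transcripts within each mouse (vertical axis, scaled for each panel), by group. Points are mice and lines are means of 3 mice. For Pde6g/Pde6a and Pde6b/Pde6a the TD139-treated mice lie below all other mice, and for the ratios to Gnat1 the groups overlap.

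The order of the 9 genes in the comparisons with TD139 followed transcript length. Pde6g and Gngt1, with principal transcripts of 900 and 1183 bases, and Sag with 1719 bases, had the 3 lowest log2 fold changes against vehicle-treated mice, whereas Pde6a with 4588 and Cngb1 with 6189 bases had the 2 highest. Spearman's rank correlation between length and log2 fold change across the 9 genes, which share the same libraries, was 0.92 for TD139 versus vehicle, 0.93 for TD139 versus naïve and −0.43 for vehicle versus naïve. Across 15059 genes of all kinds, it was 0.49, 0.60 and −0.10. Reads counted on no feature also differed with treatment, with 21.3 to 22.8% of reads for TD139, 16.5 to 19.4% for vehicle and 19.1 to 19.9% for naïve retinas. The part of RNA quality or library preparation in this trend was not tested.

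When a smooth trend of each mouse with transcript length and GC content was entered as an offset, the rank correlation across the 9 genes was 0.25, −0.05 and 0.15 in the same order. With the offset, all 9 differences were above 0 for TD139 versus vehicle, with a median of 0.44, and 5 were called higher, against 13.9% of the 15059 genes and a median of all of them of 0.07. The called genes were in part others. Pde6g was at 0.76 (adjusted p = 0.0123) and Gnat1 at 0.68 (adjusted p = 0.0132), both called, whereas Cngb1 at 0.44 (adjusted p = 0.104) and Cnga1 at 0.33 (adjusted p = 0.0805) were not. Pde6a at 0.81, Pde6b at 0.62 and Gnb1 at 0.43 were called with and without it. Sag turned to 0.29 (adjusted p = 0.186). In the vehicle versus naïve comparison, 8 genes were lower with the offset, Gngt1 at −0.86 (adjusted p = 0.0142) and Pde6g at −0.77 (adjusted p = 0.0135) among them, against 13.4% of all genes called lower and a median of all genes of −0.10, and Sag was at −0.43 (adjusted p = 0.0662). Against naïve mice, Pde6g in TD139-treated mice was at −0.01 with the offset, and edgeR called none of the 9 and 0% of all genes in either direction, while 2, Gngt1 and Cnga1, had an unadjusted p under 0.05. The offset left the sign of all 9 differences for vehicle versus naïve and of 8 of the 9 for TD139 versus vehicle, and it narrowed the spread among the 9 genes in the latter from a range of 1.05 to 0.54 on the log2 scale. The range moved less for TD139 versus naïve, from 0.67 to 0.64, and for vehicle versus naïve, from 0.47 to 0.43.

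**Figure D4:**
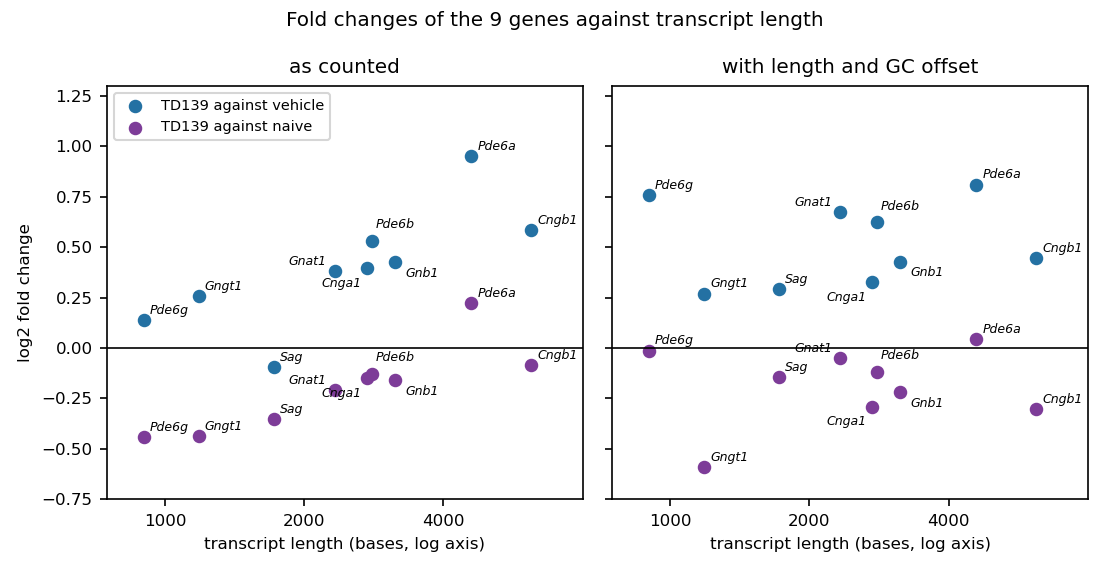
Log2 fold changes of the 9 genes (vertical axis) against the length of the principal transcript in bases (horizontal, log axis), as counted on the left and with the length and GC offset on the right. On the left both comparisons with TD139 rise with length (rank correlation 0.92 and 0.93), and on the right it is 0.25 and −0.05.

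The other genes of the rod were listed by role, with earlier results of these data known. In the 3 lists of photoresponse shutoff and calcium feedback (11 genes), outer segment structure (6) and rod identity (4), all 21 genes had differences below 0 for vehicle versus naïve, and 13 were called lower, against 2.89% of all genes, with a median of −0.63. For TD139 versus vehicle, 13 of the 21 were called higher, against 17.2% of all genes, with a median of 0.54. With the length and GC offset 17 of the 21 were called in each of these comparisons, against 13.4% of all genes called lower in the first and 13.9% called higher in the second. Against naïve mice 1 of the 21 was called lower in TD139-treated mice, against 2.38% of all genes. This was Guca1a, a calcium sensor of guanylate cyclase (−0.47 ± 0.12, adjusted p = 0.0465). With the offset, 0 of the 21 and 0% of all genes were called in that comparison. Grk1, a kinase of the photoresponse shutoff, fell after light (−0.90 ± 0.17, adjusted p = 0.0209) and rose with TD139 (1.01 ± 0.17, adjusted p = 0.00568). The same was found for Rgs9bp, the anchor of the complex that speeds GTP hydrolysis by transducin (−0.89 ± 0.19, adjusted p = 0.0269, and 1.08 ± 0.20, adjusted p = 0.00610). The transcription factors Crx (−0.67 ± 0.13, adjusted p = 0.0224, and 0.63 ± 0.13, adjusted p = 0.00834) and Nr2e3 (−0.48 ± 0.10, adjusted p = 0.0249, and 0.46 ± 0.10, adjusted p = 0.00954) passed in both comparisons as well. Nrl was at −0.65 ± 0.19, adjusted p = 0.0616 after light and at 0.47 ± 0.19, adjusted p = 0.0775 with TD139.

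Cones use a parallel cascade built from their own subunits. Of 8 cone counterparts, none was called by edgeR for vehicle versus naïve, and their median was −0.14. Of the 8, 5 had differences below 0 and 3 above. At an unadjusted p under 0.05 there was 1, Gnb3, the cone transducin beta gene that bipolar cells also express, whose difference was above 0 (0.40 ± 0.16, adjusted p = 0.130). DESeq2 called 0 of the 8 and limma called 1, Arr3 (lower), where DESeq2 called 8.39% of all genes higher and 6.54% lower, and limma 12.1% higher and 10.2% lower. Arr3, the cone arrestin gene, was lowest in edgeR (−0.53 ± 0.29, adjusted p = 0.269). The cone transducin alpha gene Gnat2 was at −0.21 ± 0.13, adjusted p = 0.320 and the cone phosphodiesterase gene Pde6c at −0.24 ± 0.17, adjusted p = 0.365. For TD139 versus vehicle, edgeR called 1 of the 8 higher and 1 lower, against 17.2 and 16.2% of all genes, and 5 had an unadjusted p under 0.05. DESeq2 called 3 of the 8 and limma 5, where DESeq2 called 18.4% of all genes higher and 17.2% lower, and limma 23.0% higher and 22.1% lower. In edgeR, Cnga3, a cone channel subunit, was higher (0.56 ± 0.19, adjusted p = 0.0439) and Gnb3 was lower (−0.62 ± 0.16, adjusted p = 0.0144). The cone results are without the length and GC offset. The difference between the rod and cone genes was not tested.

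Markers of other cell types were counted in the same way, also without the length and GC offset. The shares of all genes were 4.91% called higher and 2.89% lower for vehicle versus naïve, and 17.2% higher and 16.2% lower for TD139 versus vehicle. All 7 microglia markers had differences above 0 for vehicle versus naïve, 5 of them called higher, and 6 of the 7 were called lower for TD139 versus vehicle. Their summed level was 43.0 to 52.4 CPM in the naïve, 135 to 197 CPM in the vehicle and 36.2 to 90.9 CPM in the TD139 group. The highest level with TD139 was that of mouse 1, in which 7 of the 9 rod genes, all but Gngt1 and Sag, were the lowest of their group. Of 6 Müller glia markers 4 were higher for vehicle versus naïve and 2 lower for TD139 versus vehicle. None of 7 bipolar cell, 6 amacrine and horizontal cell and 6 ganglion cell markers was called for vehicle versus naïve by edgeR, with medians of −0.04, 0.11 and 0.11. In these lists 2, 1 and 0 had an unadjusted p under 0.05, DESeq2 called 2, 0 and 0, and limma 2, 2 and 0. For TD139 versus vehicle, 3 bipolar markers were called higher and 2 lower, 1 amacrine and horizontal marker higher and 1 lower, and 1 ganglion cell marker lower. A count of 1 among 6 markers is near the share of all genes called in either direction. Retinal pigment epithelium markers summed to 92.4 to 235 CPM in the naïve, 201 to 423 CPM in the vehicle and 115 to 170 CPM in the TD139 group, with 2 of 5 called lower for TD139 versus vehicle and Best1 too low to be tested. None of the 6 lens markers was called by edgeR, DESeq2 or limma in any comparison, and 1 had an unadjusted p under 0.05, for TD139 versus vehicle. The part of these cell types in the levels of the rod genes was not tested.

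**Figure D5:**
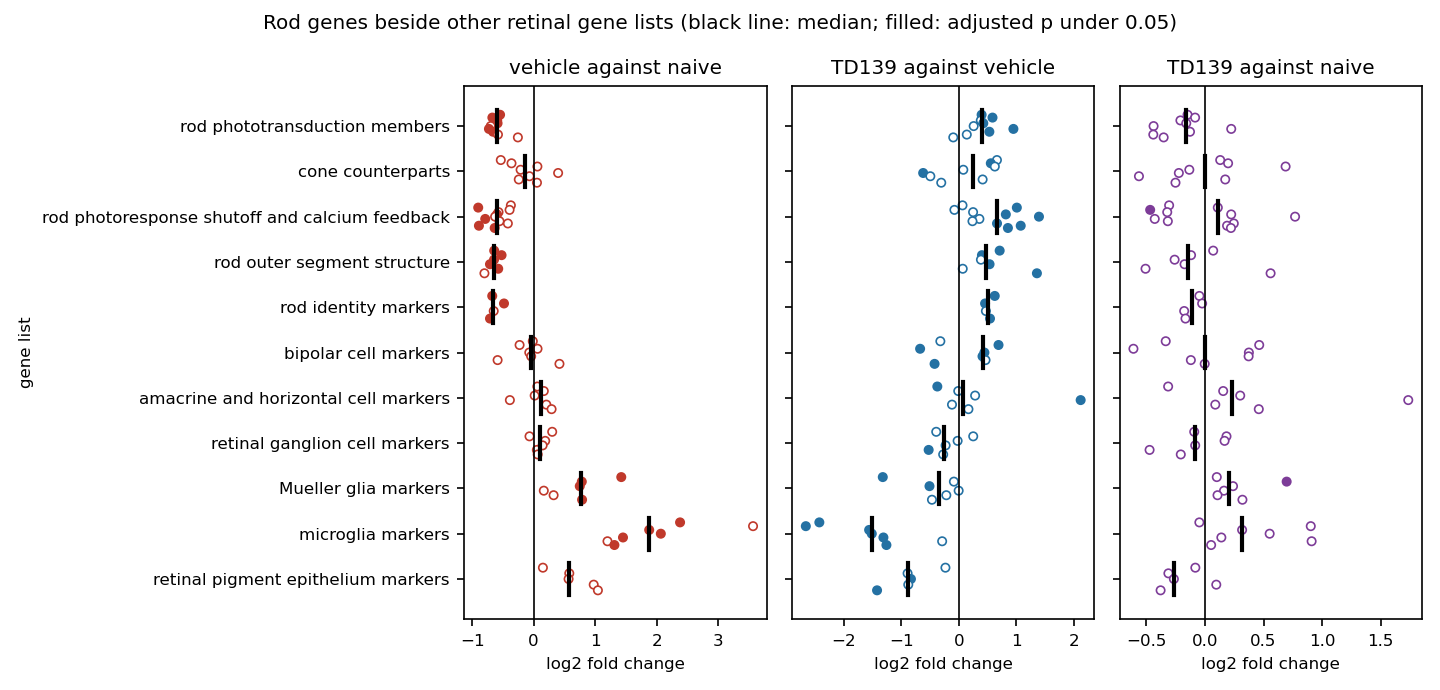
Log2 fold changes (horizontal axis) of the genes of 11 lists (vertical axis) in 3 comparisons. Points are genes, filled where the adjusted p-value is under 0.05, and black lines are medians. The 4 rod lists have medians between −0.66 and −0.59 for vehicle versus naïve, and microglia markers a median of 1.88.

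Across the 9 mice, most members followed the mean of the 9 genes, with Pearson's r between log2 CPM and that mean of 0.99 for Gnb1, 0.98 for Pde6b, Cnga1 and Gnat1, and 0.96 for Cngb1. Pde6g and Gngt1 both had r of 0.88, Pde6a 0.80 and Sag 0.45. These values describe 9 mice in 3 groups, and each gene is itself a part of the mean. The comparison was extended to 13084 further genes averaging 50 counts or more, of which the 5 most alike included Prph2, a structural protein of the disc rim (r = 0.99), Slx1b (0.98), Mto1 (0.98) and Cep57l1 (0.97). Of these, Prph2 was from the rod lists, and Slx1b, Mto1 and Cep57l1 had mean levels of 47.8, 23.7 and 11.5 CPM in naïve mice.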

How the data were processed

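Retinal RNA was sequenced from 9 mice in 3 groups of 3, described by the study as biological triplicates. The edgeR p-values rest on a spread between mice within groups that is estimated over all 9 mice together. Stranded poly(A) libraries were read from 1 end in 2 runs. Per run, the authors deposited whole-number counts of reads per gene symbol, made with BaseSpace RNA Express and not scaled. The study's data statement speaks of counts normalized with DESeq2, but the values are whole numbers whose totals differ between mice, and they were used as unscaled counts. The build in the submitters' processing notes is mm10, and the annotation and strand setting are not given in the sources used here. Reads on no feature (16.5 to 22.8%) did not enter library sizes. Runs of a mouse differed by a chi-square of 1.60 to 1.76 per degree of freedom, mice of a group by 14.8 to 65.3, and runs were summed.

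Counts were filtered (filterByExpr), TMM-normalized and tested with edgeR 4.0.16 in R 4.3.3 (robust quasi-likelihood F test, all 3 groups in 1 fit, no covariate), with Benjamini-Hochberg adjustment over 15196 genes and a threshold of 0.05. The SE is the log2 fold change divided by the square root of F. Alternatives were DESeq2 1.42.0, limma 3.58.1 (voom with quality weights), RLE or library-size scaling, no filter, the compared groups alone, the replicate number as a block, an offset for length and GC content (spline with 4 degrees of freedom per mouse), either run alone, and each mouse left out. Transcript lengths came from GENCODE M21 (GRCm38), in which 98.31% of symbols had a match. Pseudogenes within the spans of Cnga1, Gnb1 and Pde6a had no symbol of their own in the counts. Steps were tested on simulated data with 200 genes changed by a log2 fold change of 2 up or down. No member reached that size, so the simulation did not examine differences as small as those of the members. Genes named are the 9 members, genes of the rod and cone lists, and the 5 non-members whose log2 CPM followed the mean of the 9 most closely (mean of at least 50 counts, 0.5 CPM added). A gene that meets these rules is not reported here. Best1 and the mouse with high lens transcripts were singled out after their values were seen. The members and lists were chosen with earlier results of these data known.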

Additional observations from a re-analysis of the deposited data

Results flagged for a closer look

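The share of reads counted on no feature, which enters none of the comparisons, had a mean of 22.2% in TD139-treated mice, above the mean of 19.3% in naïve and 18.1% in vehicle-treated mice, and the TD139-treated mice did not overlap with the others.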

How the results depend on the processing

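Over the 9 genes, the median difference kept its sign in each comparison under all 11 alternatives and with any 1 of the 9 mice left out. Counts of called genes were less stable. With any 1 mouse left out, 0 to 8 genes were called lower for vehicle versus naïve, 1 to 6 higher for TD139 versus vehicle, and 0 to 1 lower for TD139 versus naïve, the last being Pde6g without naïve mouse 3. In the same fits the calls over all genes were 0 to 815 lower, 867 to 2995 higher and 0 to 1156 lower. Under the other alternatives 6 to 8 and 4 to 6 were called in the first 2 comparisons, where 258 to 2016 of all genes were called lower and 1863 to 3491 higher. For TD139 versus naïve, limma called 1 gene higher and 2 lower and DESeq2 called 1 lower. Sag in TD139 versus vehicle turned to 0.29 with the length and GC offset and to 0.28 with the offset and the replicate block together, and Cngb1 in TD139 versus naïve ranged from −0.15 to 0.053 with any 1 mouse left out, turning positive without TD139-treated mouse 1, and was −0.30 with the offset.

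With the replicate block, 6 genes were lower for vehicle versus naïve and 6 higher for TD139 versus vehicle, Gnat1 being added (adjusted p = 0.0380), against 341 lower and 2436 higher of the 15196 genes, and 0 were called for TD139 versus naïve. Same-numbered mice had correlated deviations of −0.26 to 0.28, so the numbers were not taken to pair the mice. Over all genes, TD139 versus naïve gave 413 higher and 362 lower, but 0 and 0 with the block or the offset, 1 and 0 with only these groups, 1422 and 1145 with DESeq2, and 2833 and 2298 with limma. For vehicle versus naïve it was 746 and 439, but 1335 and 1041 with DESeq2, 1839 and 1546 with limma, 893 and 258 with library size alone, and 929 and 2016 with the offset. For TD139 versus vehicle it was 2617 and 2455, but 1942 and 3040 with library size alone and 2094 and 1144 with the offset. The median of all genes was 0.09 (vehicle versus naïve) and −0.10 (TD139 versus vehicle) with library size alone, and −0.10 and 0.07 with the offset.

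With any 1 mouse left out, these log2 ratios changed sign. Pde6b/Pde6a ranged from −0.057 to 0.15 and Pde6g/Pde6a from −0.093 to 0.34 for vehicle versus naïve. Gngt1/Gnat1 ranged from −0.24 to 0.033 for vehicle versus naïve and from −0.18 to 0.036 for TD139 versus vehicle. Gnb1/Gnat1 ranged from −0.071 to 0.11, −0.0078 to 0.077 and −0.035 to 0.14 for vehicle versus naïve, TD139 versus vehicle and TD139 versus naïve. Cngb1/Cnga1 ranged from −0.032 to 0.12 for TD139 versus naïve. With the offset, which was chosen for the ratios after the data were seen, Pde6b/Pde6a was −0.19, Pde6g/Pde6a −0.052 and Gngt1/Gnat1 −0.41 for TD139 versus vehicle, and Pde6g/Pde6a −0.058 and Gngt1/Gnat1 −0.54 for TD139 versus naïve. It turned Pde6g/Pde6a to −0.0057 for vehicle versus naïve, Gnb1/Gnat1 to −0.25 and −0.17 for TD139 versus vehicle and naïve, and Cngb1/Cnga1 to −0.013 for TD139 versus naïve. The cause of these changes was not tested.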
